A study of Mus musculus with 9 samples.

Results

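The 10 genes described here make up the core of the switch that controls passage through the G1 phase of the cell cycle. They are the 3 D cyclins (Ccnd1, Ccnd2 and Ccnd3), their kinases (Cdk4 and Cdk6), 3 inhibitors of cyclin-dependent kinases (Cdkn1a, Cdkn1b and Cdkn2c) and 2 pocket proteins (Rb1 and Rbl1). They were matched by gene symbol, and all 10 were found once each among the 54532 genes of the tables. The lowest count of any of them in any library was 184, so none was near the floor of detection.

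RNA was measured in 9 libraries of 3T3-L1, a mouse fibroblast-like preadipocyte line that stores lipid once differentiated, with n = 3 per group. Undifferentiated cells were held at confluence for 3 days in high glucose DMEM with 10% bovine calf serum. Differentiated cells then received a medium with insulin (10 μg/mL), rosiglitazone (1 μM), dexamethasone (1 μM), 3-isobutyl-1-methylxanthine (0.5 mM) and lysine (800 μM) for 3 days, and Lysfree cells received that medium with 0 μM lysine added, in which traces of lysine remained by the measurement of the study. The base of this medium was a DMEM without arginine and lysine, given back arginine in both groups, with fetal bovine serum, so serum and base medium differed from the Undifferentiated group together with the hormones. The time at which Undifferentiated cells were collected is not given in the sources used here. All libraries came from a single cell line, and nothing says that replicates were separate cultures, so p values measure the spread between these libraries. The study asked how the lack of lysine acts on adipocyte formation, and the comparisons below follow its 3 pairs of groups.

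D cyclins bind CDK4 or CDK6, and the active kinases phosphorylate the retinoblastoma proteins, which then release E2F transcription factors and let S phase genes be transcribed. INK4 proteins such as p18 (Cdkn2c) hold CDK4 and CDK6 inactive, while p21 (Cdkn1a) and p27 (Cdkn1b) act mainly on CDK2 and also help D cyclins and CDK4 to assemble. In 3T3-L1 cells the hormone mix makes growth-arrested cells divide again before they form adipocytes. Much of the control of this switch is on protein stability and phosphorylation, which RNA does not show.

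Values are counts of reads per gene and FPKM, both as the authors deposited them. FPKM is scaled per kilobase of gene and for library size, but it does not follow the library totals of the counts. Scaled by these totals (CPM), Cdk4 was at 275.8 in Lysfree 3 and 252.1 in Differentiated 3, whereas its FPKM was 79.13 and 80.16. The further scaling is not explained in the sources used here. Levels, sums and overlaps in FPKM carry it when groups are compared, and shares within a library do not. Libraries held between 15880144 and 21806693 counts. Changes were tested with edgeR's quasi-likelihood test over all genes, a gene is said to rise or fall at a Benjamini-Hochberg adjusted p under 0.05, and a differentially expressed gene (DEG) had in addition a change of at least 2-fold. Lysfree 1 stood apart from the other Lysfree libraries, with a chi-square of 43.3 and 44.4 per degree of freedom over genes against them and 2.765 between them. Pairs of Differentiated libraries gave 2.973 to 4.872. Undifferentiated pairs gave 3.778 to 12.26, with the highest value between Undifferentiated 1 and Undifferentiated 2. Calls of members that changed without Lysfree 1 are given with and without it, as are some values of other genes. Adipocyte markers (10 genes) summed to 7050 to 7400 FPKM in Differentiated libraries, 322 to 405 in Undifferentiated and 296 to 412 in Lysfree libraries. Of these 10, 2 rose (Cd36 and Lpl) and 7 fell in Lysfree vs Undifferentiated, where 18.0% and 17.1% of all genes did. Mean Cd36 was 16.55 FPKM in Undifferentiated and 72.7 in Lysfree cells, and mean Adipoq 57.8 and 4.18 FPKM. The similar sums of these groups thus hide opposite changes. Preadipocyte and fibroblast markers (10 genes) summed to 5840 to 6310 FPKM in Undifferentiated, 1500 in Differentiated and 3100 to 3200 FPKM in Lysfree libraries. Here too the genes differed, as 3 rose and 6 fell in Lysfree vs Undifferentiated. The 6 macrophage markers summed to at most 16.2 FPKM and the 5 epithelial markers to at most 2.03. Endothelial and skeletal muscle markers summed to at most 0.272 FPKM. In bulk RNA, a smaller share of cells that express a gene and less RNA per cell cannot be told apart, and the part that adipocyte formation has in the changes below was not tested.

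All 10 members differed between Differentiated and Undifferentiated cells. Of these, 7 rose (Ccnd2, Ccnd3, Cdk6, Cdkn1a, Cdkn2c, Rb1 and Rbl1), where 23.0% of the 24402 genes tested did so, and 3 fell (Ccnd1, Cdk4 and Cdkn1b), where 23.2% of all genes did. At the 2-fold threshold, 3 members were higher DEGs (Ccnd2, Cdkn2c and Rb1) against 10.4% of all genes, and Cdkn1b was a lower DEG against 11.4%. The median log2 fold change of the members was 0.55, beside 0.02 over all genes. In Lysfree cells relative to Differentiated cells, 2 of the 10 members rose (Ccnd1 and Cdk6; background 19.7%) and 4 fell (Ccnd2, Ccnd3, Cdkn2c and Rb1; background 18.8%). Ccnd1 was a higher DEG, against 8.14% of all genes, and Cdkn2c and Rb1 were lower DEGs, against 10.5%. The median of the members was -0.24, beside -0.06 over all genes tested. In Lysfree cells relative to Undifferentiated cells, 4 members rose (Ccnd1, Ccnd2, Cdk6 and Rb1; background 18.0%) and 4 fell (Ccnd3, Cdk4, Cdkn1b and Cdkn2c; background 17.1%), with Cdk6 a higher DEG (background 5.52%) and Cdkn2c a lower DEG (background 8.76%). The median here was 0.25, beside -0.02. These backgrounds include genes with few counts, which edgeR's expression filter removes. Among the genes it kept, 75.4% passed on differentiation, 63.5% in Lysfree vs Differentiated and 58.3% in Lysfree vs Undifferentiated. All 10 members were among these genes, so the backgrounds over all genes are a low standard for them. Each group enters 2 of the 3 comparisons, so the 3 sets of calls are not independent. Without Lysfree 1, 9 members passed the test in each comparison that uses the Lysfree group, in place of 6 against Differentiated and 8 against Undifferentiated cells. Over all genes the share that passed also rose without this library, from 38.5% to 45.2% and from 35.1% to 40.6%. Several adjusted p became far smaller at similar effects, as for Ccnd1 in Lysfree vs Differentiated (edgeR, 5.74e-13 with and 7.5e-295 without Lysfree 1). Calls gained in this setting thus rest on fewer libraries with less spread and are not firmer than those from all libraries. Cdk6 was then no longer a DEG, which left 1 in Lysfree vs Undifferentiated. Some DEG calls lay close to the 2-fold threshold. On differentiation, Cdkn2c was under it with library totals alone, without Undifferentiated 1 and without Differentiated 3 (log2 fold changes of 0.94 to 0.98). Rb1 was under it in Lysfree vs Differentiated with limma on log2(FPKM + 1), without Lysfree 2 and without Lysfree 3 (-0.94 to -0.99).

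**Figure D1:**
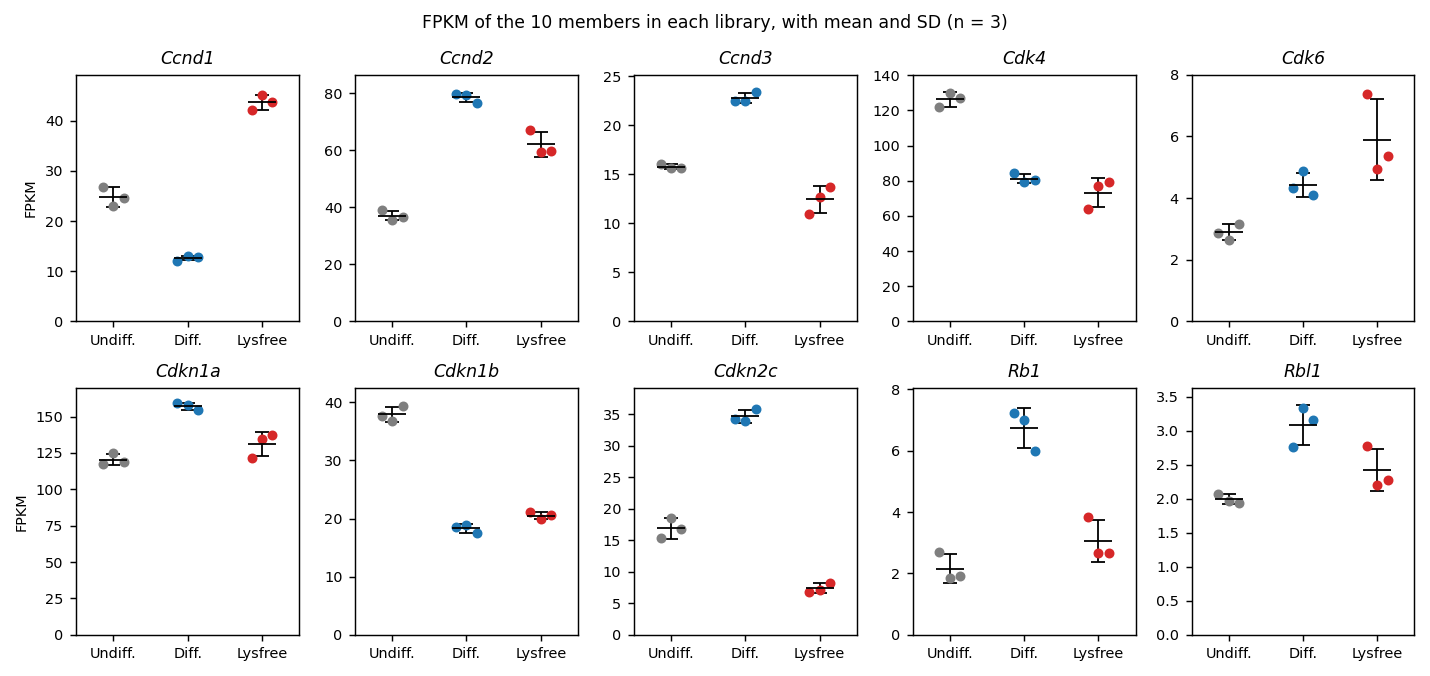
FPKM (vertical axes, each starting at 0) of the 10 members in the 9 libraries. Points are libraries, grey for Undifferentiated, blue for Differentiated and red for Lysfree, and black lines give the mean and SD of n = 3. Ccnd1 was lowest in Differentiated and highest in Lysfree libraries, and Cdkn2c was highest in Differentiated and lowest in Lysfree libraries.

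**Figure D2:**
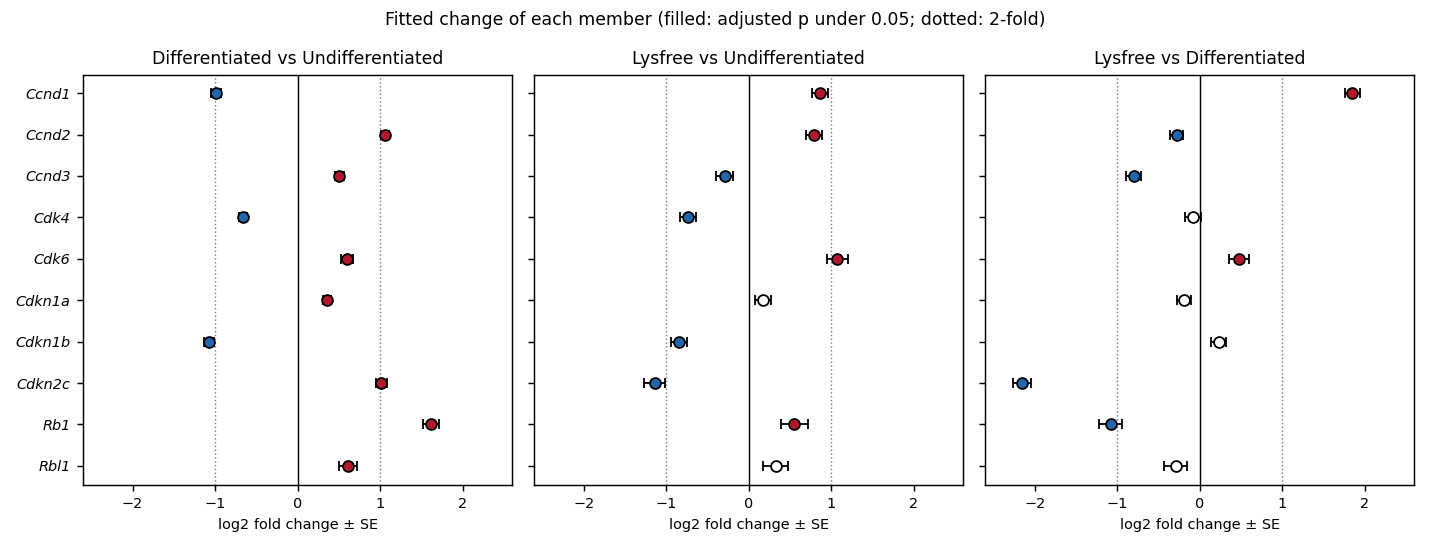
Fitted log2 fold changes (horizontal axes) with their standard errors for the 10 members in the 3 comparisons. Red points rose and blue points fell at an edgeR adjusted p under 0.05, white points did not pass, and dotted lines mark 2-fold. In Lysfree vs Differentiated, Ccnd1 at 1.85 and Cdkn2c at -2.16 lie farthest from 0.

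Ccnd1 (ENSMUSG00000070348, mm10 chromosome 7, 144929931 to 144939925, minus strand) encodes cyclin D1, the D cyclin most tied to growth factor signalling. Its FPKM was 26.8, 22.9 and 24.55 in Undifferentiated libraries 1 to 3, 12.1, 13.0 and 12.9 in Differentiated libraries and 42.1, 45.1 and 43.8 in Lysfree libraries. No library of a group overlapped with another group, with Differentiated cells lowest and Lysfree cells highest. On differentiation Ccnd1 fell, with a log2 fold change of -0.99 (SE 0.06, edgeR adjusted p = 1.21e-54), a 1.99-fold change just short of the DEG threshold. Between Lysfree and Differentiated cells it rose by 1.85 (SE 0.09, edgeR adjusted p = 5.74e-13), or 3.605-fold. Lysfree cells also lay 0.87 above Undifferentiated cells (SE 0.10, edgeR adjusted p = 9.7e-09). The very small p values of Differentiated vs Undifferentiated come from a fit that found no variation of dispersion between genes beyond its trend. With edgeR's expression filter the adjusted p of the 10 members in that comparison lay between 3.63e-10 and 0.000108.

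Ccnd2 (ENSMUSG00000000184, chromosome 6, 127125162 to 127152193, minus strand), for cyclin D2, moved differently. It stood at 39.0, 35.7 and 36.7 FPKM in Undifferentiated, 79.8, 79.2 and 76.8 in Differentiated and 67.1, 59.5 and 59.6 in Lysfree libraries. All libraries with the hormone mix thus lay above all Undifferentiated libraries, with or without lysine. The log2 fold change was 1.055 on differentiation (SE 0.05, edgeR adjusted p = 1.18e-97) and 0.79 in Lysfree vs Undifferentiated (SE 0.09, edgeR adjusted p = 2.35e-08). The remaining gap between Lysfree and Differentiated cells was -0.28 (SE 0.08, edgeR adjusted p = 0.00743), and its call was lost without Differentiated 1 (edgeR adjusted p = 0.0519).

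Ccnd3 (ENSMUSG00000034165, chromosome 17, 47505051 to 47599691, plus strand) encodes cyclin D3, the D cyclin known to persist in differentiated cells and to act with PPARγ in fat cells. It gave 16.1, 15.6 and 15.6 FPKM in Undifferentiated, 22.4, 22.5 and 23.35 in Differentiated and 10.99, 12.7 and 13.7 in Lysfree libraries. The 3 groups did not overlap, and the order was the reverse of that of Ccnd1. Ccnd3 rose by 0.50 on differentiation (SE 0.06, edgeR adjusted p = 8.1e-19) and fell by 0.80 on the log2 scale in Lysfree vs Differentiated (SE 0.10, edgeR adjusted p = 5.23e-07). Its level in Lysfree cells was also below that of Undifferentiated cells, with a log2 fold change of -0.29 (SE 0.10, edgeR adjusted p = 0.0245), which did not pass once Undifferentiated 1 or Undifferentiated 3 was left out, nor with limma on log2(FPKM + 0.1) (adjusted p = 0.0709).

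Since FPKM is per length, the 3 D cyclins can be summed within a library. Their sum was 77.7 ± 3.87 FPKM (SD, n = 3) in Undifferentiated, 114 ± 0.907 in Differentiated and 118 ± 1.73 FPKM in Lysfree cells, and the libraries of both groups in hormone medium lay between 113 and 120.2 FPKM. Ccnd1 made up 31.85% ± 0.97 (SD, n = 3) of the sum in Undifferentiated cells, 11.1% ± 0.444 in Differentiated cells and 37.0% ± 1.77 in Lysfree cells. Ccnd2 was the most abundant of the 3 in every group, at 47.8% ± 0.259, 68.9% ± 0.927 and 52.5% ± 2.9. Ccnd3 made up 20.3% ± 0.718 of the sum in Undifferentiated, 19.96% ± 0.612 in Differentiated and 10.55% ± 1.3 in Lysfree cells. In a two-sided exact permutation test of each share, p was 0.1 for all comparisons other than Ccnd3 in Differentiated vs Undifferentiated (exact p = 0.6), and 0.1 is the smallest p that 3 libraries against 3 allow.

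**Figure D3:**
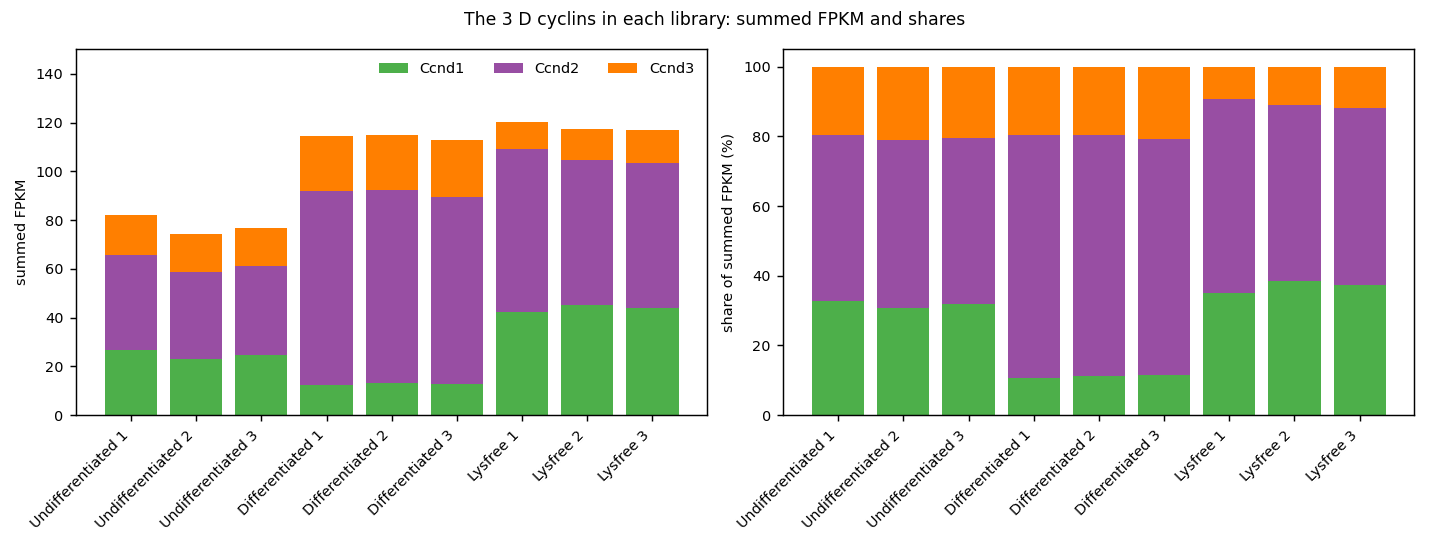
Stacked bars of the 3 D cyclins in each of the 9 libraries, as summed FPKM (left) and as percent of the sum (right). Green is Ccnd1, purple Ccnd2 and orange Ccnd3. The sum is 74.2 to 81.9 FPKM in Undifferentiated libraries and at least 113 FPKM in all others, and the green part is smallest in Differentiated libraries.

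Of the kinases, Cdk4 (ENSMUSG00000006728, chromosome 10, 127063534 to 127067920, plus strand) was far more abundant than Cdk6. Its FPKM was 122, 130 and 127 in Undifferentiated, 84.2, 79.3 and 80.2 in Differentiated and 63.9, 76.8 and 79.1 in Lysfree libraries. Every library in hormone medium lay below every Undifferentiated library, and Lysfree 1 was the lowest. In CPM (counts scaled by library total) with TMM factors, the scale of the test, Lysfree libraries were at 215, 257 and 265 and Differentiated libraries at 272, 256 and 260, so these 2 groups overlapped. Cdk4 fell by 0.66 on the log2 scale on differentiation (SE 0.05, edgeR adjusted p = 2.36e-36) and by 0.74 in Lysfree vs Undifferentiated (SE 0.10, edgeR adjusted p = 2.76e-07). Between Lysfree and Differentiated cells the log2 fold change was -0.08 (95% interval -0.28 to 0.11, edgeR adjusted p = 0.501), so no difference was detected, though the test does not show that the levels were equal. Without Lysfree 1 the value was -0.01 (edgeR adjusted p = 0.827).

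Cdk4 is a textbook target of Myc, which binds the E-box CACGTG, and its promoter is shown for that reason. The stretch is the 250 bases before the RefSeq start of Cdk4 in GRCm38.p6 (chr10:127063285-127063534, plus strand), written 5′ to 3′ with E-boxes in capitals.
Cdk4 promoter: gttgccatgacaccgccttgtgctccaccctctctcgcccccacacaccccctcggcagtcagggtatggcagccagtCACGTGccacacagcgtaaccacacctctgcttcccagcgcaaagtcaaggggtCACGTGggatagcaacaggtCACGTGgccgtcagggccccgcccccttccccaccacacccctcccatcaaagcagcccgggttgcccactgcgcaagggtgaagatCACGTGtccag
The 4 E-boxes begin 172, 118, 98 and 11 bases before the start. CACGTG reads the same on both strands and occurred in 7.15% of 32851 RefSeq promoter windows of 300 bases, and 8 of these windows (0.0244%) held 4 or more. Myc stood at 11.2 ± 0.398 FPKM (SD, n = 3) in Undifferentiated, 63.9 ± 1.85 in Differentiated and 61.5 ± 4.12 FPKM in Lysfree cells. It rose in both comparisons with Undifferentiated cells, by 2.48 (SE 0.07, edgeR adjusted p = 2.06e-310) and 2.499 (SE 0.11, edgeR adjusted p = 6.45e-19) on the log2 scale, while Cdk4 fell in both. Myc belongs to the list of transcription factors given below and was singled out here after its values had been seen. A match of letters is not evidence of binding.

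Cdk6 (ENSMUSG00000040274, chromosome 5, 3341485 to 3531008, plus strand) gave 2.86, 2.65 and 3.16 FPKM in Undifferentiated, 4.315, 4.86 and 4.12 in Differentiated and 7.39, 4.94 and 5.35 in Lysfree libraries. The groups did not overlap, with Lysfree 1 well above the others. Cdk6 rose by 0.59 on differentiation (SE 0.07, edgeR adjusted p = 1.09e-15), by 1.07 in Lysfree vs Undifferentiated (SE 0.125, edgeR adjusted p = 1.22e-08) and by 0.47 in Lysfree vs Differentiated (SE 0.13, edgeR adjusted p = 0.00416). The last call was lost with limma on log2(FPKM + 1) and log2(FPKM + 0.1), at adjusted p of 0.151 and 0.163. Without Lysfree 1 the last value was 0.26 and the one against Undifferentiated 0.86, which is under 2-fold. The share of Cdk6 in the summed FPKM of both kinases was 2.24% ± 0.221 (SD, n = 3), 5.18% ± 0.518 and 7.58% ± 2.41 in the 3 groups, and the summed level was 129 ± 4.11 FPKM in Undifferentiated, 85.7 ± 2.48 in Differentiated and 79.2 ± 6.95 FPKM in Lysfree cells.

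Cdkn2c (ENSMUSG00000028551, chromosome 4, 109660876 to 109667189, minus strand) encodes p18, an INK4 inhibitor that binds CDK4 and CDK6, and overlaps no other gene of the table. Its FPKM was 15.3, 18.5 and 16.8 in Undifferentiated, 34.2, 33.9 and 35.9 in Differentiated and 6.80, 7.145 and 8.27 in Lysfree libraries. No groups overlapped, and Lysfree cells held less than Undifferentiated cells. Cdkn2c rose by 1.01 on differentiation (SE 0.07, edgeR adjusted p = 1.56e-50) and fell by 2.16 on the log2 scale in Lysfree vs Differentiated (SE 0.11, edgeR adjusted p = 9.02e-13), a 4.47-fold difference and the largest among the 10 members in any of the 3 comparisons. Against Undifferentiated cells, Lysfree cells were lower by a log2 fold change of -1.14 (SE 0.13, edgeR adjusted p = 5.34e-09).

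Cdkn1a (ENSMUSG00000023067, chromosome 17, 29090976 to 29100727, plus strand) encodes p21, the inhibitor best known as a target of p53. It was the most abundant of the 3 inhibitors in every library, at 118, 125 and 119 FPKM in Undifferentiated, 159, 158 and 154 in Differentiated and 122, 135 and 137 in Lysfree libraries. Differentiated libraries lay above all others, and Lysfree 1 fell within the range of Undifferentiated libraries. On differentiation Cdkn1a rose by 0.36 (SE 0.05, edgeR adjusted p = 4.51e-12). Lysfree cells were at -0.19 against Differentiated cells (95% interval -0.37 to -0.02, edgeR adjusted p = 0.0692) and at 0.17 against Undifferentiated cells (95% interval -0.02 to 0.36, edgeR adjusted p = 0.181), neither of which passed. The first value passed as a fall under 7 of the 15 alternatives tried, among them DESeq2 (adjusted p = 0.0192) and edgeR with its expression filter (edgeR adjusted p = 0.0192). Without Lysfree 1 both passed, at -0.16 (edgeR adjusted p = 4.5e-05) and 0.20 (edgeR adjusted p = 0.00103).

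Cdkn1b (ENSMUSG00000003031, chromosome 6, 134920401 to 134925513, plus strand) encodes p27, an inhibitor known to be high in resting cells, and the gene overlaps no other gene. It gave 37.7, 36.8 and 39.4 FPKM in Undifferentiated, 18.6, 18.8 and 17.5 in Differentiated and 21.1, 19.8 and 20.55 in Lysfree libraries. All libraries in hormone medium lay below all Undifferentiated libraries. Cdkn1b fell by 1.08 on the log2 scale on differentiation (SE 0.06, edgeR adjusted p = 2.08e-74) and by 0.84 in Lysfree vs Undifferentiated (SE 0.10, edgeR adjusted p = 1.22e-08). Lysfree libraries lay above Differentiated libraries without overlap, with a log2 fold change of 0.23 (95% interval 0.04 to 0.42, edgeR adjusted p = 0.0552), which passed under 5 of the 15 alternatives, among them without Lysfree 1 at 0.19 (edgeR adjusted p = 0.00202). Summed over the 3 inhibitors, the level was 175 ± 4.92 FPKM in Undifferentiated, 209.9 ± 2.21 in Differentiated and 159 ± 8.59 FPKM in Lysfree cells. Cdkn1a made up 68.7% ± 0.742, 74.8% ± 0.419 and 82.4% ± 1 of these sums.

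Rb1 (ENSMUSG00000022105, chromosome 14, 73183673 to 73325822, minus strand) encodes the retinoblastoma protein, which holds E2F factors inactive. Its FPKM was 2.69, 1.85 and 1.91 in Undifferentiated, 7.22, 6.99 and 6 in Differentiated and 3.84, 2.68 and 2.66 in Lysfree libraries. Differentiated libraries stood well above all others, and in FPKM Undifferentiated 1 overlapped with the Lysfree libraries. Rb1 rose by 1.61 on differentiation (SE 0.09, edgeR adjusted p = 1.3e-66), the largest rise of a member in that comparison, and fell by 1.08 on the log2 scale in Lysfree vs Differentiated (SE 0.14, edgeR adjusted p = 1.72e-06). The difference between Lysfree and Undifferentiated cells was 0.55 (SE 0.17, edgeR adjusted p = 0.00793), and it did not pass under 6 of the 15 alternatives, among them edgeR's expression filter (edgeR adjusted p = 0.0527) and the fits without Undifferentiated 2 (edgeR adjusted p = 0.0509) or Undifferentiated 3 (edgeR adjusted p = 0.116). Its value without Lysfree 1 was 0.33.

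Rbl1 (ENSMUSG00000027641, chromosome 2, 157145893 to 157204534, minus strand) encodes p107, a pocket protein that is itself a known E2F target. By group means it was the least abundant member in all 3 groups, at 2.075, 1.96 and 1.94 FPKM in Undifferentiated, 2.76, 3.34 and 3.16 in Differentiated and 2.77, 2.205 and 2.28 in Lysfree libraries. All Lysfree libraries lay above the Undifferentiated ones, and Lysfree 1 alone overlapped with the Differentiated group. Rbl1 rose by 0.61 on differentiation (SE 0.11, edgeR adjusted p = 1.05e-07). Lysfree cells were at -0.29 against Differentiated cells (95% interval -0.58 to -0.0032, edgeR adjusted p = 0.11) and at 0.32 against Undifferentiated cells (95% interval 0.02 to 0.63, edgeR adjusted p = 0.102). Without Lysfree 1 the first value was -0.42 and passed (edgeR adjusted p = 0.000329), and the second was 0.19 and did not pass (edgeR adjusted p = 0.27). The first also passed with at least 10 counts in every library (edgeR adjusted p = 0.0472).

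The 250 bases before the RefSeq start of Rbl1 in GRCm38.p6 (chr2:157204535-157204784, minus strand) are shown because they hold an E2F motif, in capitals, 5′ to 3′.
Rbl1 promoter: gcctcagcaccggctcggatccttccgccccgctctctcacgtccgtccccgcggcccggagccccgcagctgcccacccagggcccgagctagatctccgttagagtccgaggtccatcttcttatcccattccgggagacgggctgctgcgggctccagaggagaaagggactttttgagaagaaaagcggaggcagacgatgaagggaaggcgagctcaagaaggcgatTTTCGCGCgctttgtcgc
The motif begins 18 bases before the start. The forms searched on both strands were TTTCCCGC, TTTGGCGC, TTTCGCGC and TTTGCCGC, and 2.26% of the 32851 windows held at least 1 of them. RefSeq promoter windows were found for 7 of the 10 members (Ccnd3, Cdk4, Cdk6, Cdkn1a, Cdkn1b, Cdkn2c and Rbl1), and Rbl1 was the only one of these 7 with an E2F form. Single E-boxes lay in windows of Cdk6 and Cdkn2c. The cAMP response element TGACGTCA, searched because 3-isobutyl-1-methylxanthine raises cAMP, was found in none of these windows and in 1.79% of all windows.

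The order of levels among the members shifted between groups. In Undifferentiated cells Cdk4 (126 FPKM) and Cdkn1a (120.4 FPKM) came first and their libraries overlapped, followed by Cdkn1b and Ccnd2, which also overlapped. In Differentiated cells the order was Cdkn1a, then Cdk4 and Ccnd2 with overlapping libraries, then Cdkn2c, Ccnd3, Cdkn1b, Ccnd1, Rb1, Cdk6 and Rbl1, each above the next without overlap. Lysfree cells began in the same way, with Cdkn1a and then Cdk4 and Ccnd2 overlapping, but Ccnd1 came next, and Cdkn2c stood at rank 7, overlapping with Cdk6. Ccnd1 was thus at rank 5 of the 10 members in Undifferentiated, 7 in Differentiated and 4 in Lysfree cells. Within the Lysfree group, library 1 was the highest of the 3 for Ccnd2, Cdk6, Cdkn1b, Rb1 and Rbl1 and the lowest for the other 5 members. The gene lengths in the table were 4552 to 13989 bases for the first set and 2686 to 8775 bases for the second, and the part of length in this was not tested.

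Other genes of the pathway were counted in 8 lists, against the same background as the members. Of all genes tested, 23.0% rose and 23.2% fell on differentiation, and 19.7% rose and 18.8% fell in Lysfree vs Differentiated. All genes of these lists other than Cdkn1c passed edgeR's expression filter. Among genes kept by that filter, 75.4% rose or fell on differentiation and 63.5% in Lysfree vs Differentiated, so the lower shares are a low standard here too. The first list was the E2F and cyclin E arm of the G1 switch (14 genes). On differentiation 9 of its genes rose and 1 fell, with a median log2 fold change of 0.53, beside 0.02 over all genes tested. In Lysfree vs Differentiated 1 rose and 8 fell, with a median of -0.67 beside -0.06. The 3 with the largest changes there were Ccne1, for cyclin E1 (log2 fold change -2.48, SE 0.13, edgeR adjusted p = 1.32e-12), the activator E2f2 (-2.32, SE 0.18, edgeR adjusted p = 8.49e-10) and Ccne2, for cyclin E2 (-1.74, SE 0.15, edgeR adjusted p = 5.27e-09). Ccne1 stood at 5.43 ± 0.151 FPKM (SD, n = 3) in Undifferentiated, 25.7 ± 0.374 in Differentiated and 4.42 ± 0.837 FPKM in Lysfree cells. The gene that rose was E2f6, named after its value had been seen, and it did not pass without Differentiated 2 or with limma on either scale.

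Genes downstream of the switch were counted in the same way. Of 16 S phase genes known as E2F targets, 14 rose on differentiation (median 0.78), and Mcm2 and Mcm4 did not pass. In Lysfree vs Differentiated 8 fell and 1 rose (median -0.42), and without Lysfree 1 the counts were 11 and 2. The gene that rose was Mcm2, which encodes a subunit of the replicative helicase, by 1.19 (SE 0.09, edgeR adjusted p = 5.47e-10). Mcm2 and Mcm4 are named here after their values had been seen. Tk1, a thymidine kinase, fell by 3.19 on the log2 scale in Lysfree vs Differentiated (SE 0.13, edgeR adjusted p = 2.1e-14). Mcm5, of the same helicase, fell by 1.33 (SE 0.11, edgeR adjusted p = 1.82e-09) and the origin licensing factor Cdc6 by 1.28 (SE 0.15, edgeR adjusted p = 3.21e-07). All 10 mitosis genes rose on differentiation (median 1.98) and all 10 fell in Lysfree vs Differentiated (median -1.91), led by Ccnb2 (-3.28, SE 0.16, edgeR adjusted p = 6.51e-13), Plk1 (-2.56, SE 0.14, edgeR adjusted p = 3.22e-12) and Aurkb (-2.40, SE 0.15, edgeR adjusted p = 1.63e-11).

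**Figure D4:**
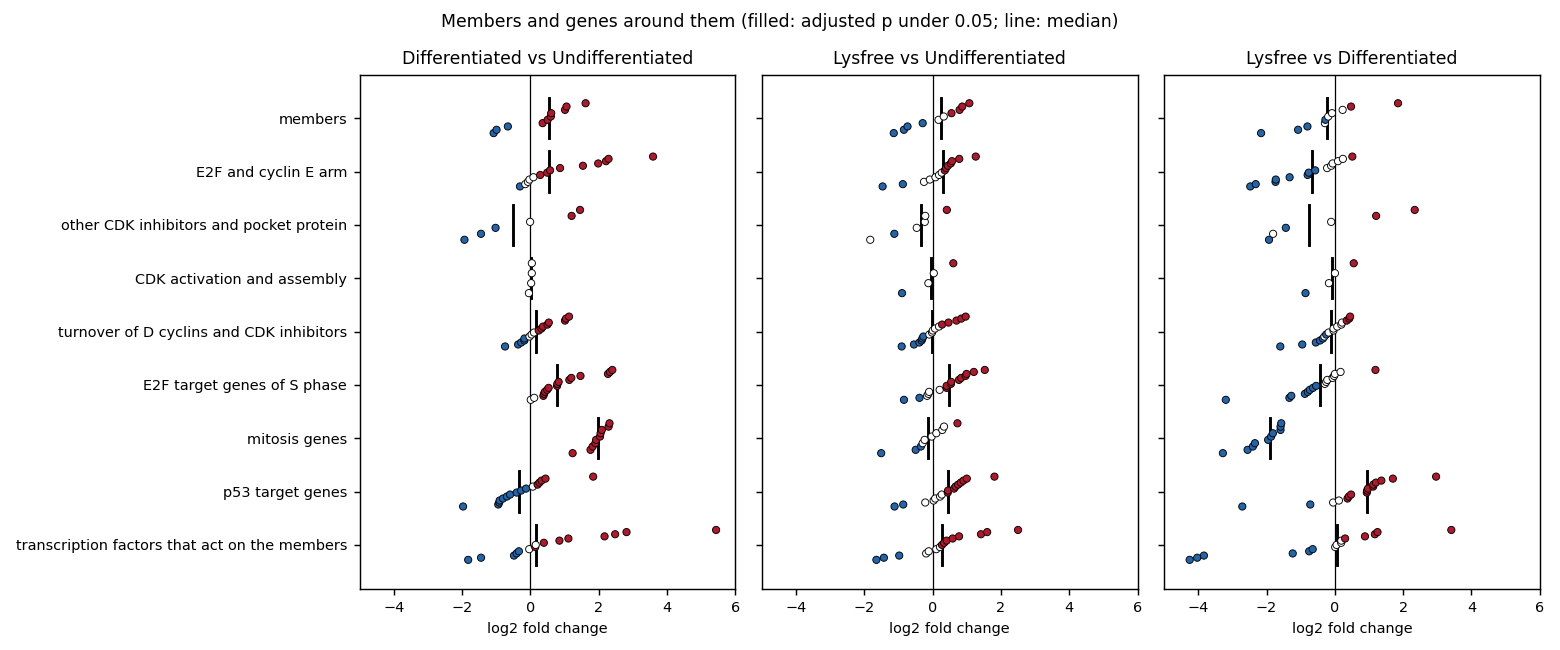
Log2 fold changes (horizontal axes) of the 10 members and of the genes of 8 pathway lists in the 3 comparisons, 1 point per gene. Red points rose and blue points fell at an edgeR adjusted p under 0.05, white points did not pass, and black lines are medians. The 10 mitosis genes lie right of 0 in Differentiated vs Undifferentiated, with a median of 1.98, and left of 0 in Lysfree vs Differentiated, with a median of -1.91.

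Among 6 other genes of CDK inhibitors and a pocket protein, 2 rose and 3 fell on differentiation (median -0.52), and 2 rose and 2 fell in Lysfree vs Differentiated (median -0.77). Cdkn2b, for p15, an INK4 inhibitor induced by TGF-beta, rose by 2.34 in Lysfree vs Differentiated (SE 0.11, edgeR adjusted p = 3.29e-13), the opposite of Cdkn2c. Its FPKM was 66.5, 74.1 and 64.65 in Undifferentiated, 18.3, 18.5 and 17.95 in Differentiated and 75.9, 96.4 and 92.4 in Lysfree libraries. Cdkn2d, for the INK4 inhibitor p19, fell by 1.44 (SE 0.14, edgeR adjusted p = 4.57e-08), and Cdkn3, a phosphatase of CDKs, fell by 1.93 (SE 0.41, edgeR adjusted p = 6e-04). Cdkn3 was low, at 4 to 20 counts in Lysfree and 29 to 51 in Differentiated libraries. Its log2 fold change was -1.59 without Lysfree 1 and ranged from -2.66 to -0.68 over the alternatives. With at least 10 counts in every library, 1 gene of this list fell. Cdkn1c, named after its counts had been seen, was at 7 counts or fewer in every library.

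Cdkn2a, the INK4 gene that encodes p16 and p19ARF from overlapping frames, was singled out after its values had been seen. Its FPKM was 385, 462 and 428 in Undifferentiated, 152, 157 and 167 in Differentiated and 239.7, 412 and 398 in Lysfree libraries, above every member in every library of the Undifferentiated and Lysfree groups. Differentiated libraries lay below all others, and Lysfree 1 lay below the other Lysfree libraries. The log2 fold change was -1.45 on differentiation (SE 0.05, edgeR adjusted p = 2.16e-163) and 1.21 in Lysfree vs Differentiated (SE 0.14, edgeR adjusted p = 4.06e-07). Cdkn2c made up 15.3 to 15.7% of the summed FPKM of the 4 INK4 genes in Differentiated libraries, 3.24 to 3.30% in Undifferentiated and 1.37 to 2.08% in Lysfree libraries. The sum itself was 516 ± 44.6 FPKM in Undifferentiated, 225 ± 8.54 in Differentiated and 450.3 ± 107.5 FPKM in Lysfree cells. In Lysfree libraries it ranged from 326.5 to 520.3 FPKM. By group means Cdkn2a was the largest part of it, and its counts do not separate RNA of p16 from that of p19ARF. The shares of Cdkn2c therefore move with Cdkn2a as well.

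**Figure D5:**
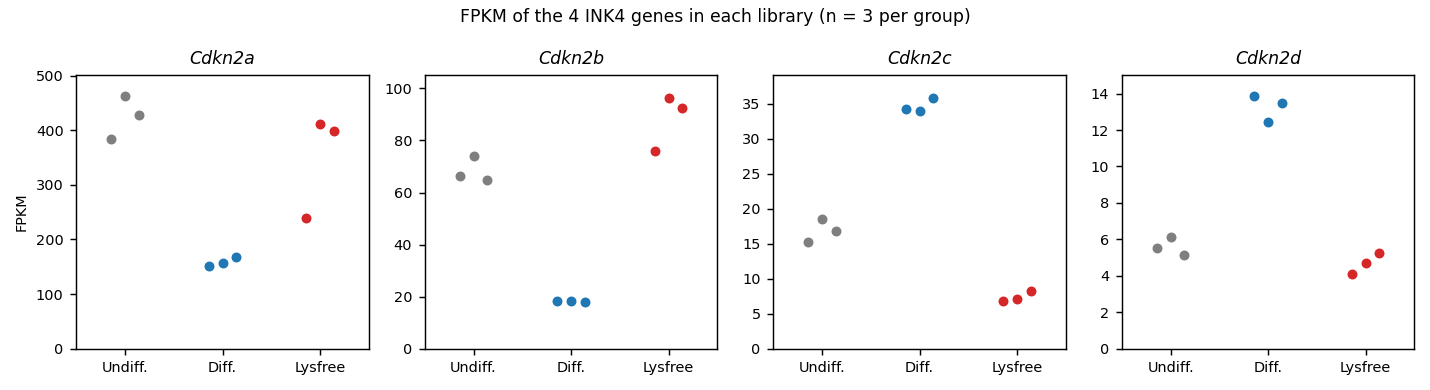
FPKM (vertical axes, each starting at 0) of the 4 INK4 genes in the 9 libraries, 1 point per library, grey for Undifferentiated, blue for Differentiated and red for Lysfree. Cdkn2a and Cdkn2b are lowest in Differentiated libraries, at no more than 167 and 18.5 FPKM, and Cdkn2c and Cdkn2d are highest there.

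The 4 genes of CDK activation and assembly had log2 fold changes of -0.05 to 0.04 on differentiation, with edgeR adjusted p between 0.515 and 0.842. In Lysfree vs Differentiated their median was -0.09. There Ccnh, the cyclin of the CDK-activating kinase, rose by 0.55 (SE 0.12, edgeR adjusted p = 0.000622), and by 0.39 without Lysfree 1. Its call was lost with limma on log2(FPKM + 0.1) at an adjusted p of 0.0599. Cdc37, the chaperone that loads CDK4, fell by 0.86 on the log2 scale (SE 0.14, edgeR adjusted p = 3.98e-05). Without Lysfree 1 the log2 fold change of Cdc37 was -0.67. Of 16 genes for the turnover of D cyclins and CDK inhibitors, 8 rose and 5 fell on differentiation (median 0.17), and 3 rose and 6 fell in Lysfree vs Differentiated (median -0.11). The falls on differentiation numbered 2 with all 9 libraries in a single fit and 3 and 2 with limma on log2(FPKM + 1) and log2(FPKM + 0.1), and the last setting left 1 rise in Lysfree vs Differentiated. Fzr1, an activator of the anaphase-promoting complex in G1, fell by 1.598 in Lysfree vs Differentiated (SE 0.11, edgeR adjusted p = 1.8e-10). Cks1b, which helps SCF ubiquitin ligase recognise p27, fell by 0.96 (SE 0.10, edgeR adjusted p = 7.14e-08), and Fbxo31, which targets cyclin D1, fell by 0.56 (SE 0.17, edgeR adjusted p = 0.0116). The last call was lost without Differentiated 3 (edgeR adjusted p = 0.0902).

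Of 16 p53 targets other than Cdkn1a, 12 rose and 2 fell in Lysfree vs Differentiated, with a median of 0.94 beside -0.06 over all genes. Plk2, a kinase of the polo family, rose by 2.96 (SE 0.10, edgeR adjusted p = 1.35e-15) and the death receptor Eda2r by 1.70 (SE 0.11, edgeR adjusted p = 4.09e-11), whereas the antiproliferative Btg2 fell by 2.71 on the log2 scale (SE 0.11, edgeR adjusted p = 2.06e-14). On differentiation 5 of the list rose and 10 fell (median -0.34). Many of these genes are known to answer to other signals as well.

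Of 15 transcription factors known to act on the members, 8 rose and 5 fell on differentiation (median 0.15), and 5 rose and 6 fell in Lysfree vs Differentiated (median 0.05). The largest changes in Lysfree vs Differentiated were falls of Cebpa, the C/EBPα factor of adipocytes (-4.25, SE 0.13, edgeR adjusted p = 5.74e-16), of the AP-1 member Fosl1 (-4.03, SE 0.14, edgeR adjusted p = 2.4e-15) and of Fos (-3.83, SE 0.18, edgeR adjusted p = 3.8e-13). Cebpa stood at 164 ± 7.07 FPKM (SD, n = 3) in Differentiated and 8.23 ± 1.85 FPKM in Lysfree cells, and is also 1 of the adipocyte markers.

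Between Lysfree and Undifferentiated cells 18.0% of all genes rose and 17.1% fell, and 58.3% changed among genes kept by edgeR's expression filter. Several counts of the lists changed when a single library was left out. Over all genes the share that passed also went from 35.1% to 33.3%, 32.8% and 28.8% without Undifferentiated 1, 2 and 3. How far the counts of the lists followed this general drop was not tested. In the E2F and cyclin E arm 7 genes rose and 2 fell (median 0.31, beside -0.02 over all genes), with 4 rises without Undifferentiated 1 or Undifferentiated 3. Of the S phase genes 10 rose and 2 fell (median 0.47), with 4 falls without Lysfree 1 and 1 without Lysfree 2. Of the mitosis genes 1 rose and 3 fell (median -0.13), with 2 rises without Lysfree 1 and 1 fall without Undifferentiated 2 or Undifferentiated 3. Among the other CDK inhibitors and pocket protein Cdkn2b rose and Rbl2, for p130 and named after its value had been seen, fell (median -0.35). Cdkn2b did not pass without Undifferentiated 3, and the falls numbered 2, 3 and 2 without Undifferentiated 1, Lysfree 2 and Lysfree 3. Of the p53 targets 9 rose and 2 fell (median 0.45), and of the CDK activation genes Ccnh rose and Cdc37 fell (median -0.05). Of the transcription factors 8 rose and 3 fell (median 0.27), with 5 rises without Undifferentiated 3. Of the turnover genes 5 rose and 6 fell (median -0.01), with 3 rises and 2 falls without Undifferentiated 3 and 3 falls without Undifferentiated 1 or Lysfree 2. With limma on log2(FPKM + 0.1) the rises numbered 4 in the E2F and cyclin E arm, 0 among the other CDK inhibitors, 2 among the turnover genes and 5 among the transcription factors, and 1 S phase gene fell. With library totals alone 1 mitosis gene fell.

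Over the 9 libraries, the gene outside the members whose log2 CPM ran most like that of a member was sought among 12698 genes with a mean of at least 1 CPM. Pearson's r was 0.999 for Ccnd2 with Ppme1 and 0.994 for Ccnd3 with Cenpm. It was 0.996 for Cdk4 with Gstm2 and 0.992 for Cdk6 with Trak2. Among inhibitors r was 0.9925 for Cdkn1a with Eif4ebp1, 0.997 for Cdkn1b with Boc and 0.999 for Cdkn2c with Gm5514. Rb1 ran with Gm38077 (r = 0.995) and Rbl1 with Thnsl1 (r = 0.984). Between 39 genes for Rbl1 and 547 genes for Ccnd1 had an r over 0.95. The 9 libraries form 3 groups and share their depth and scaling, so these values describe the pattern over groups.

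Several members share ground with other genes, and the strand setting of the counting is not given in the sources used here, so reads of the shared parts cannot be told apart. Ccnd1 overlaps Oraov1 (at most 519 counts, against at least 883 for Ccnd1), Ccnd3 overlaps Bysl (at most 1614 counts, against at least 1695), and Cdk4 overlaps Tspan31 (at most 1609 counts, against at least 3649). Rb1 overlaps Rcbtb2 (at most 1401 counts) and Lpar6 (at most 298 counts), both on the opposite strand, where Rb1 itself had 184 counts in its lowest library. The genes that overlap Ccnd2, Cdk6 and Rbl1 had at most 27 counts, and the one that overlaps Cdkn1a had at most 96.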

How the data were processed

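Paired-end reads of poly A RNA from 3T3-L1 cells made up 9 libraries, 3 per group. The labels gave group and replicate, and each table column matched 1 sample by name. The authors removed low quality reads, mapped the rest to mm10 with HISAT2 (2.0.5 in the submitters' processing notes, which also name featureCounts 1.5.0-p3) and deposited a raw count per gene. A second deposited table holds FPKM of the same genes. The strand setting and the annotation release are not given in the sources used here. Coordinates of genes are those of the deposited tables, and promoter windows are from RefSeq on GRCm38.p6.

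Counts were scaled by TMM and tested by the quasi-likelihood functions of edgeR 4.0.16 (two-sided, Benjamini-Hochberg adjustment over all genes) in R 4.3.3, for each pair of groups apart, over genes detected in at least 1 of the 6 libraries (count above 0). SE is the size of the log2 fold change divided by the square root of F. The script was tested on simulated data. The 10 members and the gene lists were chosen with earlier results of these data known. In each of the 8 pathway lists all genes were counted, and the 3 with the largest change among those that passed in Lysfree vs Differentiated are named. For each member the gene with the highest Pearson r over the 9 libraries is named. Other genes of these lists were named after their values had been seen. Sums and shares of FPKM other than those of D cyclins were added after the data had been seen, as descriptions. Alternatives covered the tool (DESeq2 1.42.0, or limma 3.58.1 on log2(FPKM + 1) and log2(FPKM + 0.1)), the scaling (median of ratios, or totals alone), the filter (edgeR's expression filter, or a count of 10 or more in every library), the libraries (all 9 in 1 fit, or each left out in turn) and a replicate block. Of the counts per library, the lowest total was 15880144 and the highest 21806693, and the smallest member count was 184. No pair of libraries within a group was a duplicate. The gene whose pattern was most like that of Ccnd1 is not reported here.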

Additional observations from a re-analysis of the deposited data

How the results depend on the processing

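Over the 15 alternatives to each of the 30 log2 fold changes of members, 423 of 450 values kept their direction and their side of the threshold, 12 no longer passed, 15 passed in place of not passing, and none turned direction. Losses fell on Rb1 and Ccnd3 in Lysfree vs Undifferentiated and on Cdk6 and Ccnd2 in Lysfree vs Differentiated. Some came with a library left out, which can lower the share that passes over all genes. In Lysfree vs Undifferentiated this share was 35.1% with all libraries and 28.8% without Undifferentiated 3. Gains fell on Cdkn1a, Cdkn1b and Rbl1. All 10 members passed on differentiation under every alternative, and 5 to 9 in Lysfree vs Differentiated and 6 to 9 in Lysfree vs Undifferentiated did so when libraries were left out. DEGs among members numbered 1 in Lysfree vs Undifferentiated with limma on log2(FPKM + 1), 1 with log2(FPKM + 0.1), and 1 to 2 when libraries were left out. On differentiation they numbered 3 to 5 over all alternatives, with Ccnd1 past 2-fold in some (as far as -1.04), and in Lysfree vs Differentiated 2 to 3. Of 344 alternative values of the 23 named pathway genes, 342 kept their call, and Ccnh and Fbxo31 lost it once each. These genes were named for the largest changes among those that passed, so few losses could be foreseen. The count is no measure for the other genes of the lists. In CPM, which is not per length, the differences in the share of D cyclins moved, in percentage points, to -13.3, 3.63 and 16.9 for Ccnd1 on differentiation, in Lysfree vs Undifferentiated and in Lysfree vs Differentiated, to 16.2, 7.11 and -9.12 for Ccnd2, and to -2.93 and -7.81 for Ccnd3 in Differentiated vs Undifferentiated and Lysfree vs Differentiated. The cause of other changes was not tested.

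Same-numbered libraries of 2 groups had correlations of -0.0845 to 0.115 between their deviations from the group means, and not all libraries correlated best with their own number. The numbers were therefore not used to pair the samples, though 3 libraries per group cannot exclude a weak pairing. With the replicate block, 10 members passed on differentiation, 8 in Lysfree vs Undifferentiated and 6 in Lysfree vs Differentiated, as without it. Over all genes, DEGs in these comparisons went from 5329, 3426 and 4507 to 4837, 3179 and 4173. They numbered 2720, 1462 and 2189 with limma on log2(FPKM + 1) and 3488, 2244 and 2891 with at least 10 counts in every library, which tests fewer genes.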

Other observations

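Mdm2, which encodes the ubiquitin ligase of p53 and was singled out for its level after its values had been seen, gave 609.6, 558.3 and 585.7 FPKM in Undifferentiated, 749, 731 and 756 in Differentiated and 864.5, 734 and 723 FPKM in Lysfree libraries. By the mean over the 9 libraries it ranked 33 among the 54532 genes, where Cdkn2a ranked 125 and Cdkn1a, the most abundant of the 10 members, ranked 332. Mdm2 rose by 0.32 on differentiation (SE 0.04, edgeR adjusted p = 1.28e-14) and by 0.45 in Lysfree vs Undifferentiated (SE 0.09, edgeR adjusted p = 6.17e-05), and its log2 fold change in Lysfree vs Differentiated was 0.12 (SE 0.07, edgeR adjusted p = 0.232). Trp53, the gene of p53 itself, was also named after its values had been seen. It fell by 0.41 on the log2 scale on differentiation (SE 0.06, edgeR adjusted p = 2.57e-11) and rose by 1.17 in Lysfree vs Differentiated (SE 0.09, edgeR adjusted p = 7.17e-10).

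Klf4, a transcription factor known to activate Cdkn1a and to act early in fat cell formation, was also chosen after its values had been seen. It stood at 23.7 ± 0.073 FPKM (SD, n = 3) in Undifferentiated, 6.83 ± 0.126 in Differentiated and 69.3 ± 17.2 FPKM in Lysfree cells. The Lysfree libraries ranged from 49.6 to 80.8 FPKM. Klf4 rose by 3.41 in Lysfree vs Differentiated (SE 0.15, edgeR adjusted p = 8.95e-14).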
